A study of Homo sapiens with 6 samples.

Results

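The regions described here are TLE3 binding regions that lie far from every protein-coding gene, mapped by ChIP-seq (sequencing of DNA recovered with an antibody to a chromatin protein) in the human breast cancer line MDA-MB-453. Peaks of the 4 deposited peak lists that shared at least 1 bp were merged on chromosomes 1 to 22 and X of hg38, and a merged region was kept when more than 100 kb separated it from the span of every protein-coding gene in RefSeq. Of 72272 merged regions, 8479 met this rule. The other regions either overlapped a coding gene (44075) or lay between genes within 100 kb of one (19718). The rule uses position only, so the libraries in which a region was found played no part in the choice.

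One group of cells had FOXA1 silenced transiently (siFOXA1, 2 libraries) and the other was the control labelled siNS (2 libraries). All 4 libraries came from MDA-MB-453, were fixed with Cross-link Gold and then formaldehyde, and used a TLE3 antibody from Proteintech. The labels number the libraries of a group as biological replicates without saying which cultures they came from, so the p-values below measure the spread between these libraries. Peak lists hold no expression, so neither the loss of FOXA1 nor the identity of the line could be checked from them. They also hold no read counts, so the depth behind each list is unknown. The question, as the series title states it, is whether TLE3 binding requires FOXA1.

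TLE3 is a member of the Groucho/TLE family of corepressors. These proteins do not bind DNA themselves and are brought to it by transcription factors, among them forkhead, TCF/LEF, RUNX and HES proteins. FOXA1 is a forkhead pioneer factor that can bind its sites in closed chromatin and acts in luminal breast cells mainly at distal enhancers. Gene deserts are long stretches without coding genes. Many flank developmental regulators and hold their remote enhancers, and many long non-coding RNA (lncRNA) genes lie in them.

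The regions themselves cannot be spelled out without the genome sequence, but RefSeq promoter windows on GRCh38.p14 (250 bases before to 50 bases after a start) give the sequence under those regions that lie at the start of a desert lncRNA. Windows that lay wholly inside a region are printed for 6 lncRNAs, chosen after their values were seen so that each of the 3 classes used below and both low and high CpG content are shown. The choice favours windows that hold a forkhead heptamer, which most desert lncRNA windows with a region do not. Each reads 5′ to 3′ on the strand of its gene. Capitals mark the forkhead heptamers TGTTTAC and TGTTTGC on either strand (the reverse complements are GTAAACA and GCAAACA). The 2 windows LINC01682 (chr1:229893859-229894158, minus strand) and LINC01522 (chr20:47990068-47990367, minus strand) lay in regions found in all 4 libraries.
LINC01682: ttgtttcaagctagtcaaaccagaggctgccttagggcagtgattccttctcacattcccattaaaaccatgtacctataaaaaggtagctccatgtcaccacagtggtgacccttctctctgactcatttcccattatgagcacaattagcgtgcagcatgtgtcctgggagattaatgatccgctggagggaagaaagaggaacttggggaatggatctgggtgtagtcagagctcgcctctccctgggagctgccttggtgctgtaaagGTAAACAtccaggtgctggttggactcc
LINC01522: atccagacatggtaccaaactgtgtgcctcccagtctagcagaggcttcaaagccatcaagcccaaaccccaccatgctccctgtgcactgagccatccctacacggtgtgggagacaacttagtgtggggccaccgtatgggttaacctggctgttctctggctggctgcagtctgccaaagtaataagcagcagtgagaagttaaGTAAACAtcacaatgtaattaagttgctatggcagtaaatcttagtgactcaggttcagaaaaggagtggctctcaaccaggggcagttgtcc
The LINC02343 window (chr13:34347793-34348092, plus strand) lay in a region of both siFOXA1 libraries and no siNS library.
LINC02343: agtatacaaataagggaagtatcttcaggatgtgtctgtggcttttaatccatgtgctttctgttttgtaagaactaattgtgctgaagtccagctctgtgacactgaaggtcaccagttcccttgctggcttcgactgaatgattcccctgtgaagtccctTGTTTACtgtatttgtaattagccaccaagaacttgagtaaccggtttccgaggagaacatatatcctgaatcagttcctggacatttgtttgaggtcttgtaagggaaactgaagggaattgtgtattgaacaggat
The DLEU2 window (chr13:50125492-50125791, minus strand) lay in a region of all 4 libraries and holds 24 CpG and no forkhead heptamer. DLEU2 is the host transcript of the microRNAs miR-15a and miR-16-1.
DLEU2: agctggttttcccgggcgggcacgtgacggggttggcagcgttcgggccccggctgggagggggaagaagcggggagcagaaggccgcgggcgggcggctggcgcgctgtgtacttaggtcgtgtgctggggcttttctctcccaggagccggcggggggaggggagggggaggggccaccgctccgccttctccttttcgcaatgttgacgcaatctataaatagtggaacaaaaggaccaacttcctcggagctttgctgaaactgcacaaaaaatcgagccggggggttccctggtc
The windows of DRAIC (chr15:69561470-69561769, plus strand), an lncRNA first described in prostate cancer cells, and LINC02747 (chr11:69479908-69480207, minus strand), upstream of the cyclin D1 gene CCND1, lay in regions of both siNS libraries and no siFOXA1 library.
DRAIC: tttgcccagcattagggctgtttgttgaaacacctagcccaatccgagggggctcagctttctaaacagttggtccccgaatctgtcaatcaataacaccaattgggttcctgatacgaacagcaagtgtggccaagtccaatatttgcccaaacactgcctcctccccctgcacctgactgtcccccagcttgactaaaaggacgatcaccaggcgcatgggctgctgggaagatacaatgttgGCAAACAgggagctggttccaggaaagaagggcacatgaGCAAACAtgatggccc
LINC02747: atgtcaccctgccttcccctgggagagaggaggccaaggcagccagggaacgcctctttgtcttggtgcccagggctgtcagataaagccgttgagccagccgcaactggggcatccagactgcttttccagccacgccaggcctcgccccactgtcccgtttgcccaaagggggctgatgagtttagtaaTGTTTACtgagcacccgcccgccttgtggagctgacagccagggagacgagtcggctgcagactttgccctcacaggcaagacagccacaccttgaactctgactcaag

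Deserts held a much larger share of the TLE3 peaks of siFOXA1 cells than of siNS cells. In siFOXA1 1 and siFOXA1 2, 23.8% (95% exact binomial interval 23.0 to 24.6) and 24.7% (24.0 to 25.5) of the peaks lay in deserts, against 5.79% (5.58 to 6.01) and 8.76% (8.50 to 9.02) in siNS 1 and siNS 2. Both siFOXA1 values were above both siNS values. The mean was 24.3% ± 0.658 in siFOXA1 and 7.28% ± 2.10 in siNS (SD, n = 2 each), a difference of 17.0 percentage points. A two-sided exact permutation test gave p = 0.333, which is the smallest p that 2 libraries against 2 allow.

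The number of desert peaks did not differ in this way. The siFOXA1 lists held 2914 and 3400 desert peaks and the siNS lists 2613 and 4080, with means of 3157 ± 344 and 3346.5 ± 1037 (SD, n = 2 each; p = 1, two-sided exact permutation test). The groups overlapped. The whole lists held 12249 and 13754 used peaks in siFOXA1 and 45105 and 46586 in siNS, so the siNS lists were 3.53-fold longer on average. The desert peaks covered 1112 and 1350 kb in the siFOXA1 lists and 1026 and 1801 kb in the siNS lists. Because a list's length can follow depth and yield as well as binding, and the depth is unknown, these values do not say how much TLE3 was bound.

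**Figure D1:**
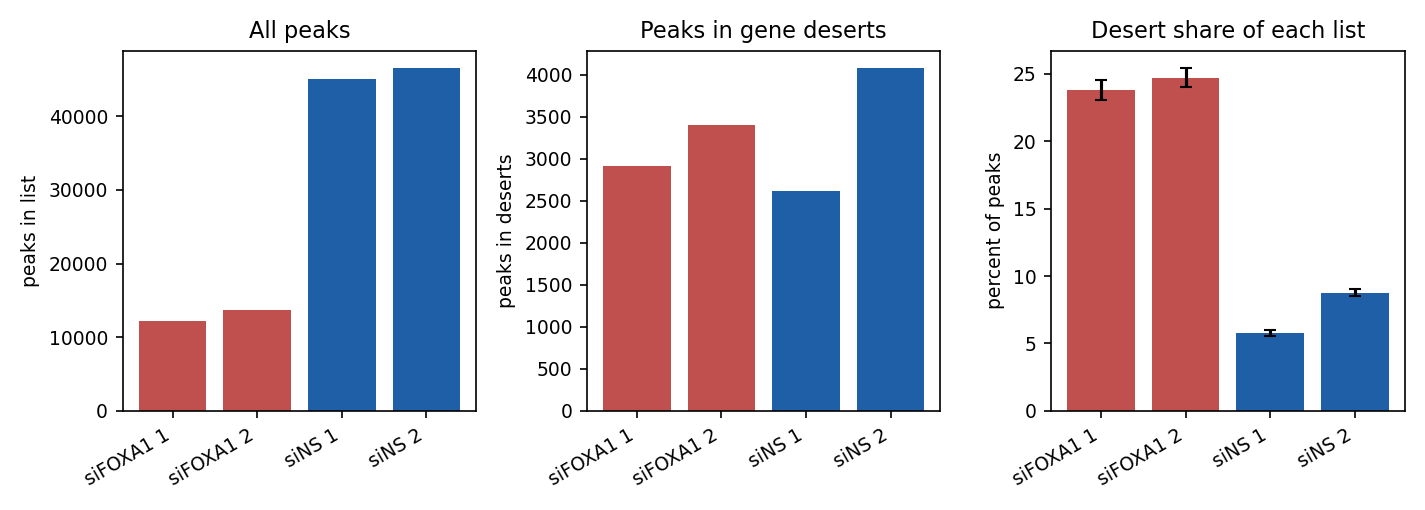
Peaks of each library over the whole list (left panel), number of peaks in deserts (middle panel) and share of the library's peaks that lie in deserts in percent, with 95% exact binomial intervals that cover counting error only (right panel); siFOXA1 libraries stand left of siNS libraries. The siFOXA1 lists are shorter, the counts of desert peaks overlap between the groups, and the share is 23.8% and 24.7% in siFOXA1 against 5.79% and 8.76% in siNS.

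Desert peaks ranked a little lower within their own list than the other peaks of that list. Peaks carry a score set by the authors whose definition is not stated, so only the percentile rank of a score within its list was used. The median desert peak stood at percentile 48.1 and 48.4 in the siFOXA1 lists and 36.6 and 45.6 in the siNS lists, while the median of the other peaks was between 50.3 and 51.0 in every list. The difference was negative in 4 of 4 libraries and averaged −5.85 ± 5.82 percentile points (SD, n = 4; p = 0.125 in a two-sided exact sign-flip permutation test, the smallest that 4 libraries allow). It was widest in siNS 1 (−14.4 points). When each list was cut at its median score, the difference was negative in siFOXA1 1 and siNS 1 (−0.68 and −14.9 points) and positive in siFOXA1 2 and siNS 2 (1.41 and 1.68 points), with a mean of −3.12 (p = 0.875, exact sign-flip permutation test). With lists of equal length it averaged −1.26 points. The top 10% of each list by score held 10.6% and 11.2% of the desert peaks in siFOXA1 and 5.13% and 9.61% in siNS.

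Replicate libraries shared fewer of their desert peaks than of their other peaks. A peak of the other library of the group overlapped 67.1% and 57.2% of the desert peaks in siFOXA1 1 and 2, and 46.1% and 29.4% in siNS 1 and 2. Away from deserts these shares were 68.6% and 61.6% in siFOXA1, and 58.8% and 61.8% in siNS. The difference was negative in 4 of 4 libraries (mean −12.7 percentage points) and reached −32.4 points in siNS 2, the library with the most desert peaks. The libraries of a group describe the same overlaps from either side. The 4 values are therefore not independent, and no p is given.

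Most desert regions were found in a single library. Of the 8479 regions, 5307 (62.6%) held a peak of 1 library, 2201 (26.0%) of 2, 704 (8.30%) of 3 and 267 (3.15%) of all 4. For the regions elsewhere the shares were 54.4%, 36.8%, 5.09% and 3.66%. Peaks of siFOXA1 libraries alone made up 3035 desert regions (35.8%), peaks of siNS libraries alone 4135 (48.8%), and both groups contributed to 1309 (15.4%). Over all merged regions these shares were 12.9%, 75.8% and 11.4%. The single-library regions were most numerous for siNS 2 (2014), followed by siNS 1 (1359), siFOXA1 2 (1193) and siFOXA1 1 (741). A further 539 regions held both siFOXA1 peaks and a siNS 2 peak but no siNS 1 peak, against 26 that held both siFOXA1 peaks and a siNS 1 peak but no siNS 2 peak. Elsewhere these patterns held 1697 and 59 regions, so the imbalance between the siNS libraries was not restricted to deserts.

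Regions that both libraries of a group agreed on fall into 3 classes. In deserts, 1101 regions (13.0%) were siFOXA1-only, meaning peaks in siFOXA1 1 and siFOXA1 2 but no siNS peak, while 4.54% of all merged regions were. Another 267 (3.15%) were common to all 4 libraries, with 3.60% over all merged regions. The remaining 762 (8.99%) were siNS-only, with peaks in siNS 1 and siNS 2 but no siFOXA1 peak, while 28.7% of all merged regions were. Among desert regions the siFOXA1-only class outnumbered the siNS-only class, and over all merged regions the order was the opposite. The order in deserts does not hold when a siNS library is left out, so that 1 library defines the siNS-only class. Without siNS 1 there were 1127 siFOXA1-only and 2803 siNS-only desert regions, and without siNS 2 there were 1647 and 2162. Without siFOXA1 1 the counts were 2307 and 829, and without siFOXA1 2 they were 1861 and 835. Common desert regions numbered 806 without siNS 1.

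The share of siNS regions that still had a peak after FOXA1 silencing was higher in deserts than elsewhere. Of 1168 desert regions with a peak in both siNS libraries, 406 (34.8%, 95% exact binomial interval 32.0 to 37.6) overlapped a siFOXA1 peak, while 17.0% of all siNS regions of this kind did. The share was 28.5% in siFOXA1 1 and 29.1% in siFOXA1 2 in deserts, with 13.4% and 14.0% over all siNS regions. It was 23.8% (1338 of 5624) for regions between genes within 100 kb of one and 13.7% (2491 of 18175) for regions over a coding gene. Regions are not replicates, so no p is given and the intervals cover counting error only. When siNS 2 is left out and the siNS regions are taken from siNS 1 alone, 17.1% of the desert regions overlapped a siFOXA1 peak, with 9.09% for the regions elsewhere.

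The higher share was also seen among regions of like strength. Stronger siNS regions were kept more often, and the share of desert regions kept climbed from 15.0% in the lowest to 72.9% in the highest of 10 equal strength bins, where strength is the mean rank of the region's best score in both siNS lists. In the same bins the share went from 3.86% to 68.8% for regions between genes within 100 kb and from 2.28% to 53.9% over genes. The desert share was the highest of the 3 in each of the 10 bins. With strength bins held, the Mantel-Haenszel odds of being kept were 3.76-fold those of regions elsewhere in siFOXA1 1 and 3.58-fold in siFOXA1 2, against 2.75-fold and 2.70-fold without the bins. Set against the regions between genes within 100 kb, the odds ratios were 1.96 in siFOXA1 1 and 1.92 in siFOXA1 2. The 10 strength bins of this comparison were cut anew over the siNS regions outside coding genes.

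**Figure D2:**
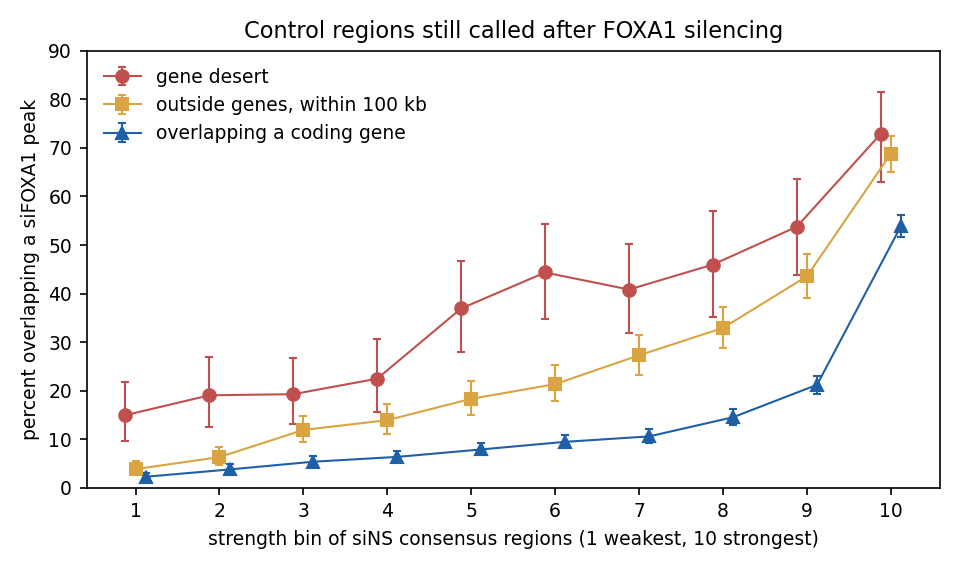
Share of siNS regions (peak in both siNS libraries) that overlap a siFOXA1 peak, in percent, across 10 strength bins of the siNS scores from weakest to strongest; lines stand for deserts, regions between genes within 100 kb and regions over a coding gene, with 95% exact binomial intervals. The desert line runs from 15.0% to 72.9% and lies above the other lines in every bin.

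Desert regions of siFOXA1 cells were in turn more often without a siNS peak. Of 1933 desert regions with a peak in both siFOXA1 libraries, 1101 (57.0%, interval 54.7 to 59.2) had no siNS peak, while 40.0% of all siFOXA1 regions of this kind had none. The share was 33.4% between genes within 100 kb and 35.6% over genes. A siNS 1 peak overlapped 15.2% of the desert regions and a siNS 2 peak 41.7%, compared with 38.2% and 64.3% elsewhere. Left with siNS 1 alone, 85.2% of the desert regions had no siNS peak (1647 without and 286 with one). Elsewhere, 3927 regions of this kind had no siNS peak and 2348 had one, so the share without one was high there too. Deserts thus held both a higher share of siNS regions with a siFOXA1 peak and a higher share of siFOXA1 regions without a siNS peak. Both shares are counted from the same peaks as the desert share of each list, so they are not independent of it.

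Within deserts both shares went up with distance from the nearest coding gene. For siNS regions, the share with a siFOXA1 peak was 31.4% (195 of 621) at 100 to 200 kb, 37.2% (156 of 419) at 200 to 500 kb and 43.0% (55 of 128, interval 34.3 to 52.0) beyond 500 kb. For siFOXA1 regions, the share without a siNS peak was 47.0%, 58.5% and 68.0% in the same bins. The siFOXA1-only regions numbered 312, 454 and 335 from the nearest to the farthest bin, the common regions 132, 97 and 38, and the siNS-only regions 426, 263 and 73. Peaks beyond 500 kb made up 5.96% and 6.55% of the siFOXA1 lists and 0.933% and 1.41% of the siNS lists. Just inside the threshold, 100 to 110 kb from a gene, 32.0% of 100 siNS regions had a siFOXA1 peak and 37.0% of 92 siFOXA1 regions had no siNS peak. Just outside it, at 90 to 100 kb, these shares were 31.3% of 115 and 46.1% of 89, so the second share did not climb steadily across the threshold. The median desert region lay 246 kb from the nearest coding gene, 440 lay over 1 Mb away and the farthest 3.55 Mb.

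**Figure D3:**
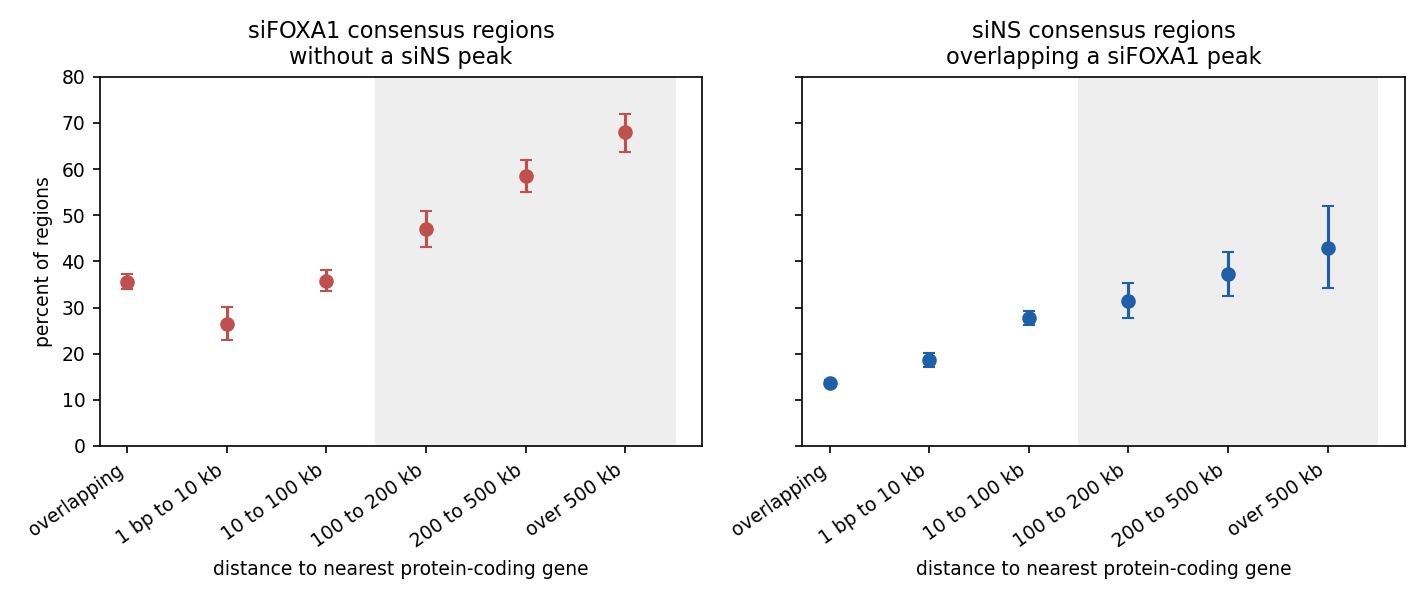
Share in percent of siFOXA1 regions without a siNS peak (left panel) and of siNS regions with a siFOXA1 peak (right panel), each called in both libraries of its group, by distance to the nearest coding gene, with 95% exact binomial intervals; the grey area marks deserts. Within deserts the left share is 47.0%, 58.5% and 68.0%, and the right share is 31.4%, 37.2% and 43.0%.

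None of the 8 strongest siFOXA1-only regions lay within 1 kb of an lncRNA end, where 2.54% of all siFOXA1-only desert regions lay. The best mean rank belonged to a region on chromosome X (98405041 to 98405936), between the endogenous retroviral gene ERVFC1 and PCDH19, a protocadherin gene, 555.66 kb and 1885.708 kb away; its scores were 159 in siFOXA1 1 and 202 in siFOXA1 2. A region on chromosome 11 (56875275 to 56876325), between the olfactory receptor genes OR9G4 and OR5AK2 and 112.589 kb from the nearer of them, had scores of 128 and 151. The last of the 8 (chromosome 5, 125795848 to 125796740) lies in LOC124901056, a non-coding gene that overlapped 14 desert regions, of which 8 were siFOXA1-only; this gene was singled out after its counts were seen.

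Among the 8 strongest common regions, some lay beside developmental genes. One lay on chromosome 16 (54425391 to 54426877) between the homeobox genes IRX3 and IRX5, with scores of 135 and 129 in siFOXA1 and 95.6 and 184 in siNS. A further one lay in HEY2-AS1 (chromosome 6, 125584289 to 125585073), beside the Notch target HEY2, with 62.0 and 85.1 in siFOXA1 and 142 and 499 in siNS. Another lay inside PVT1, the lncRNA gene next to MYC, on chromosome 8 (128024724 to 128025702), with 44.3 and 53.5 in siFOXA1 and 518 and 492 in siNS. Scores of different lists are not on one scale, so they are given here for their place within each list: all 3 of these regions ranked above percentile 90 of each list. Common desert regions had a median rank at percentile 74.5 in both siFOXA1 lists, against 70.6 in siNS 1 and 92.7 in siNS 2.

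Over all desert regions, 11.5% of the siNS-only and 9.74% of the common class lay within 1 kb of an lncRNA end. Of the 8 strongest siNS-only regions 3 did, as did 2 of the 8 strongest common regions. The first covered an end of LOC107985377 on chromosome 1 (22257172 to 22258570), 114.075 kb from WNT4, a Wnt ligand gene of mammary duct branching, with scores of 227 and 292 in siNS 1 and 2. The second lay in LINC02952, within 1 kb of its end, on chromosome 11 (69442218 to 69444112), between MYEOV and CCND1, with 187 and 347. Another lay between INHBB, an inhibin beta subunit gene, and GLI2, a Hedgehog effector gene, on chromosome 2 (120564061 to 120565681), with 123 and 256. A region in LINC01814, 109.557 kb from ID2, which encodes an inhibitor of helix-loop-helix factors, had 125 and 113. A region in DIRC3 had 126 and 112. Desert siNS-only regions had a median rank at percentile 57.0 in siNS 1 and 58.8 in siNS 2, while siNS-only regions elsewhere had 70.5 and 59.7.

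The region with the highest score of the whole siNS 1 list was itself a desert region. It spans 2447 bp on chromosome 15 (69593685 to 69596131) over the lncRNA gene PCAT29, 137 kb from RPLP1, a ribosomal protein gene and the nearest coding gene, in the desert whose other flank is TLE3 itself. Its scores were 9.30 and 15.6 in siFOXA1 1 and 2, and 790 and 650 in siNS 1 and 2. Its rank was at percentile 49.2 and 70.4 of the siFOXA1 lists, 100 of the siNS 1 list and 99.996 of the siNS 2 list. The highest score of the siNS 2 list was 696, at another peak. This desert held 17 regions, of which 1 was found in siFOXA1 libraries only, 3 in both groups and 13 in siNS libraries only. The DRAIC promoter region printed above is one of its 3 siNS-only regions, with scores of 16.6 and 218 in siNS 1 and 2. The desert on the other side of TLE3, up to UACA, held 36 regions, of which 0 were found in siFOXA1 libraries only, 8 in both groups and 28 in siNS libraries only. These deserts were looked up after the top region was seen.

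Between neighbouring coding genes, 1651 stretches remain after 100 kb is taken off at each gene, 950 Mb in all, and 1198 of them (72.6%) held at least 1 region. Their lengths include assembly gaps, which were not subtracted. The regions were spread widely: the median desert held 2, and the 10 fullest held 478, or 5.64% of all desert regions. Of 772 deserts with a region of any class, 405 held more siFOXA1-only than siNS-only regions and 278 the opposite.

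The fullest deserts were of different kinds, and 9 of the 10 are described. VRK1 to BCL11B on chromosome 14, beside a zinc finger gene of T cell and skin development, was filled from both groups, with 50 regions, 24 and 20 siFOXA1 peaks and 23 and 36 siNS peaks; 7 regions were common. Others were filled from siFOXA1 cells. CDC73 to KCNT2 on chromosome 1 (193354816 to 196125778) had 61 regions, of which 45 were found in siFOXA1 libraries only, 4 in both groups and 12 in siNS libraries only. TENM4 to FAM181B on chromosome 11 had 53, of which 36 were found in siFOXA1 libraries only, 7 in both groups and 10 in siNS libraries only. TBL1XR1 to KCNMB2 on chromosome 3, beside a gene for an NCoR/SMRT complex subunit, held 12 siFOXA1-only regions and 2 siNS-only regions among 41.

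The other fullest deserts were filled from siNS cells, several of them on chromosome 22. CRYBA4 to MN1 held 47 regions, with 0 siFOXA1-only, 2 common and 18 siNS-only. TBC1D22A to TAFA5 held 41, with 1, 2 and 10 in the same order. TAFA5 to BRD1 held 45, with 2 and 1 siFOXA1 peaks and 42 and 14 siNS peaks, so most of its regions came from siNS 1 alone. MID1IP1 to BCOR on the X chromosome, beside a BCL6 corepressor gene, held 41 regions with 0 siFOXA1-only and 9 siNS-only. RNF144A to ID2 held 37 with 1 siFOXA1-only, 4 common and 9 siNS-only.

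All of the 5 densest deserts were short and filled from siNS cells. MYEOV to CCND1 on chromosome 11 (69397288 to 69541155), beside the cyclin D1 gene, had 146 regions per Mb, with 1 and 0 siFOXA1 peaks and 17 and 9 siNS peaks. CEBPB to PTPN1, beside the C/EBP beta gene, had 136 per Mb and WNT4 to ZBTB40 had 128. LPCAT1 to MRPL36 had 134 per Mb and no siFOXA1 peak in either library, against 10 and 4 siNS peaks. VEGFA to MRPL14, beside the gene of an angiogenic growth factor, had 126 per Mb. Over all 1651 deserts the density was 8.87 regions per Mb.

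**Figure D4:**
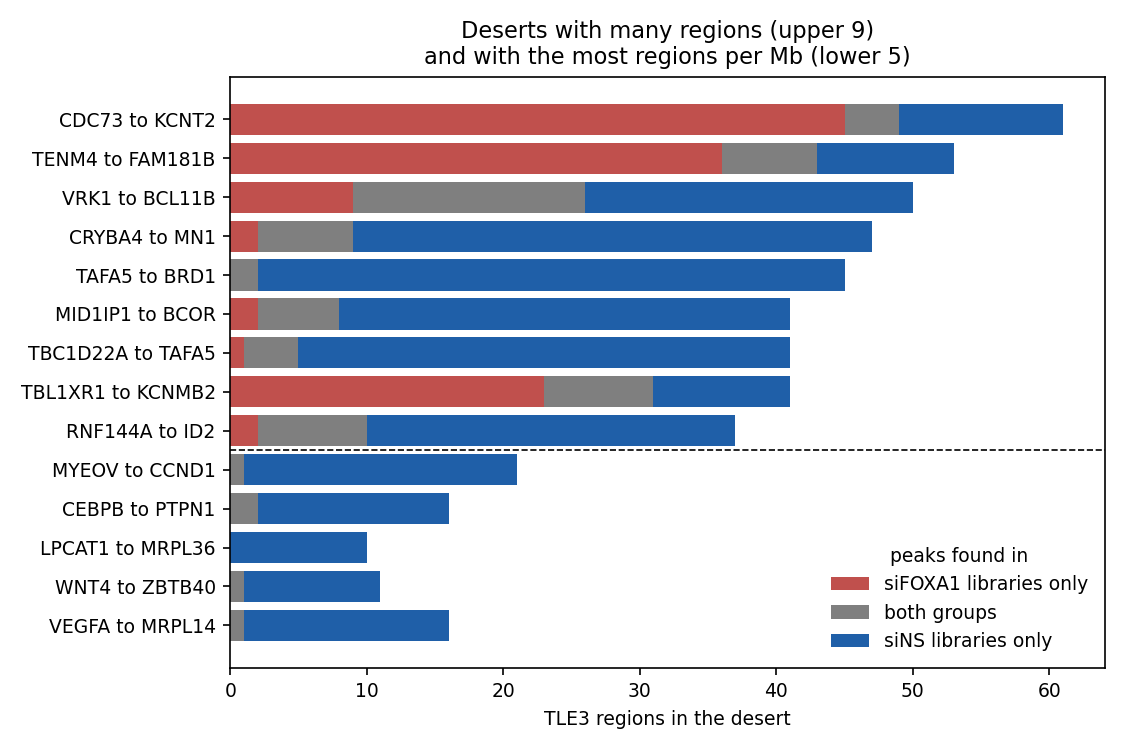
Regions in 9 of the 10 deserts with the most regions (above the dashed line) and the 5 with the most regions per Mb (below it), each named by its flanking coding genes, split into regions found in siFOXA1 libraries only, in both groups and in siNS libraries only. CDC73 to KCNT2 holds 45 regions of siFOXA1 libraries only and TAFA5 to BRD1 holds 0; the 5 densest deserts hold no region of siFOXA1 libraries only.

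The same contrast ran along desert length. The 787 deserts under 200 kb held 4.33 and 4.73 siFOXA1 peaks per Mb in siFOXA1 1 and 2, and 8.25 and 10.7 siNS peaks per Mb in siNS 1 and 2. In the 603 deserts of 200 kb to 1 Mb the densities were 4.24 and 4.82 in siFOXA1 and 3.88 and 6.66 in siNS. In the 261 deserts of 1 Mb and over they were 2.38 and 2.87 in siFOXA1 and 1.57 and 2.48 in siNS. The siNS density thus dropped more steeply with length than the siFOXA1 density. The siFOXA1-only regions numbered 70, 430 and 601 from the shortest to the longest deserts, and the siNS-only regions 175, 363 and 218. These groups of deserts hold 62.8, 285 and 601 Mb. Per Mb there were 1.11, 1.51 and 0.999 siFOXA1-only regions, so their density did not climb with length. The siNS-only density fell from 2.79 to 1.27 and 0.362 per Mb.

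Deserts beside developmental regulators were longer than others and held more regions per Mb. From a list of 77 regulators known to flank deserts, drawn up with earlier results of these data in view, 68 flank a desert, making 88 deserts. Of these, 77 (87.5%) held a region, against 71.7% of the 1563 other deserts, at 13.7 regions per Mb against 8.56. The share of siNS regions kept was 35.5% (50 of 141) beside the listed genes and 34.8% in the other deserts. The median length was 512.5 kb beside the listed genes and 207.6 kb for the other deserts, and deserts without a region had a median of 55.9 kb. The part of length in the share with a region was not tested. MYC to GSDMC held 35 regions, with 1 siFOXA1-only, 2 common and 8 siNS-only. TBX3 to MED13L, beside a T-box gene of mammary development, also held 35, with 1, 0 and 5 in the same order. Deserts of the opposite make-up were ARRDC3 to NR2F1, beside an orphan nuclear receptor gene, with 7, 0 and 0 among 31 regions, SOX2 to ATP11B with 7, 0 and 1 among 27, and GATA3 to CELF2, beside a luminal regulator, with 6, 0 and 2 among 27. TFAP2C to BMP7, beside the AP-2 gamma gene, held 0, 0 and 5 among 21.

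Non-coding genes of any kind overlapped 2622 desert regions (30.9%), and these genes cover 20.9% of the desert sequence. That sequence is the 950 Mb between neighbouring coding genes, with assembly gaps included, and 57 of the desert regions lie outside it. The share of regions on a non-coding gene differed little by class: 29.6% of siFOXA1-only, 32.6% of common and 33.6% of siNS-only regions. The spans with the most desert regions were LOC105370777 with 26 (5 siFOXA1-only, 0 common, 3 siNS-only), LOC105379013 with 20 (3, 3 and 1), LOC105370003 with 19 (0, 0 and 3), and DIRC3, LOC124904475 and PVT1 with 18 each. PVT1 (chromosome 8, 127794524 to 128101256) held 0 siFOXA1-only, 2 common and 6 siNS-only regions. DLEU1 with 16, LOC105378178 with 15, CFAP20DC-DT with 14 and LINC00536 with 14 complete the 10. These last genes tie with LOC124901056, LOC105373592 and MIR3667HG, which also hold 14, and the tie was broken by the order of symbols.

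The ends of lncRNA genes separated the classes more clearly than their spans did. This comparison was added after the data were seen. Within 1 kb of an lncRNA end lay 28 of 1101 siFOXA1-only regions (2.54%, interval 1.70 to 3.65), 26 of 267 common regions (9.74%, 6.46 to 13.9) and 88 of 762 siNS-only regions (11.5%, 9.37 to 14.0). The intervals of the common and siNS-only classes overlap and lie above that of the siFOXA1-only class. These ends, with 1 kb on either side, make up 1.69% of the same desert sequence, assembly gaps included. Over peaks, the share was 3.88% and 3.74% in siFOXA1 1 and 2 and 7.96% and 6.84% in siNS 1 and 2, with means of 3.81% ± 0.101 and 7.40% ± 0.793 (SD, n = 2 each). Both siFOXA1 libraries were below both siNS libraries (p = 0.333, two-sided exact permutation test, the smallest possible). Called without siNS 1, the siNS-only share was 7.28%, against 2.48% for siFOXA1-only. Desert siNS regions at lncRNA ends had a siFOXA1 peak in 37 of 125 cases (29.6%, 21.8 to 38.4), and other desert siNS regions in 369 of 1043 (35.4%, 32.5 to 38.4). The intervals overlap. With strength bins held, the odds ratio of being kept was 0.736 in siFOXA1 1 and 0.620 in siFOXA1 2.

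**Figure D5:**
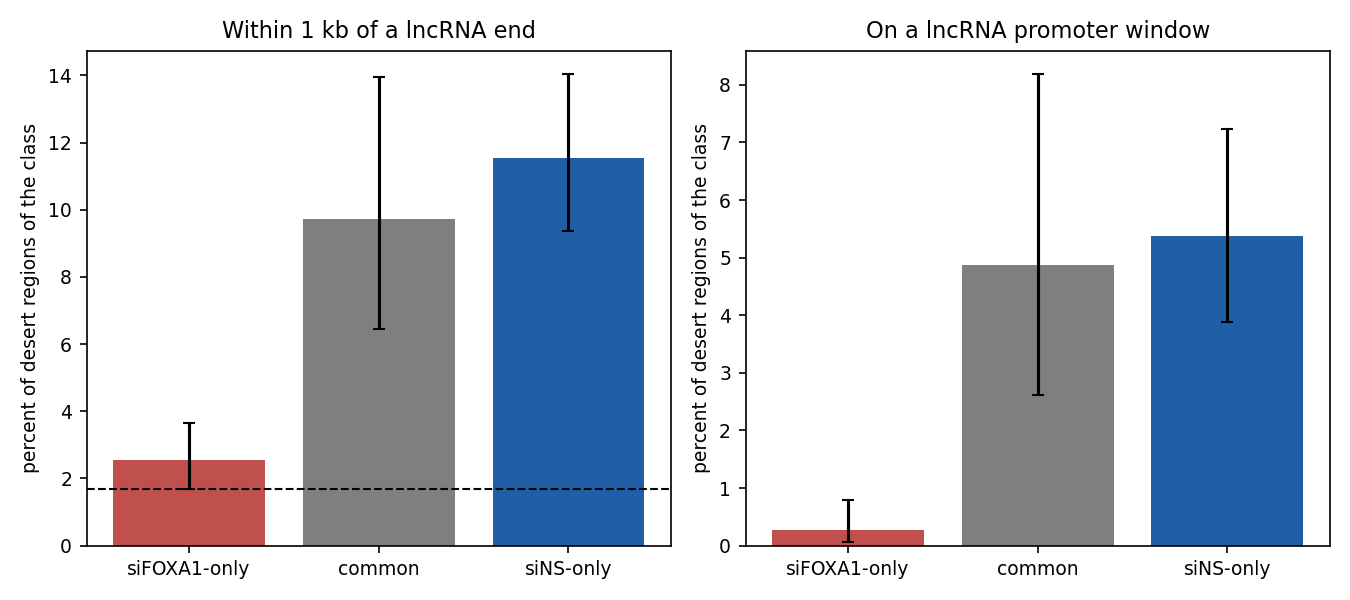
Share in percent of the desert regions of each class that lie within 1 kb of an lncRNA gene end (left panel) or on an lncRNA promoter window (right panel), with 95% exact binomial intervals that cover counting error only; the dashed line marks the 1.69% of desert sequence within 1 kb of such an end. On the left the siFOXA1-only class is at 2.54%, the common class at 9.74% and the siNS-only class at 11.5%, and on the right they are at 0.272%, 4.87% and 5.38%.

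At the promoter windows of desert lncRNAs the siFOXA1-only class was the lowest. A window at the outer start of a gene lies within 1 kb of an lncRNA end. The counts here are thus not independent of those at lncRNA ends. A window lay under 3 of 1101 siFOXA1-only regions (0.272%, interval 0.0562 to 0.794), 13 of 267 common regions (4.87%) and 41 of 762 siNS-only regions (5.38%, 3.89 to 7.23). In all, 145 of 2907 desert lncRNA windows were touched by a region. Their median GC content was 50.3% with a median of 6 CpG, compared with 42.3% and 2 CpG for the 2762 windows without a region. The 50 windows under siNS-only regions had 60.0% GC and 15 CpG, the 15 under common regions 49.7% and 4 CpG, and the 3 under siFOXA1-only regions 40.7% and 3 CpG. Windows of 1 gene or of neighbouring genes can overlap and share sequence.

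TGTTTAC on either strand was found in 23 of the 145 windows with a region (15.9%), against 5.14% of the 2762 desert lncRNA windows without one and 3.42% of all 34781 promoter windows in the table. TGTTTGC, which cannot overlap it, was in 10 of the 145 windows with a region (6.90%), 5.50% of those without one and 3.88% of all windows. By class, TGTTTAC was in 1 of 3 siFOXA1-only, 4 of 15 common and 7 of 50 siNS-only windows. TGTTTGC was in 0, 0 and 6 windows in the same order. LINC01682, LINC01522, LINC02343 and LINC02747 are among the windows that hold TGTTTAC, and DRAIC holds TGTTTGC at 2 places instead. Of the windows that hold TGTTTAC, those of LOC124901254 and LOC105374901 overlap in the same siNS-only region. Those of LINC01522 and LOC107985436 overlap in the same common region, so a site can be counted more than once. The other motifs searched, also on both strands, were TGANTCA, the core of AP-1 sites, and GCCNNNGGC, the core of AP-2 sites, which can overlap the heptamers. TGANTCA was in 15 of the 145 windows (10.3%), 13.4% of the desert lncRNA windows without a region and 7.69% of all windows. By class, TGANTCA was in 1 of 3 siFOXA1-only, 4 of 15 common and 2 of 50 siNS-only windows. GCCNNNGGC was in 31 of the 145 (21.4%), 7.06% of those without a region and 23.2% of all. Its counts by class were 0 of 3, 3 of 15 and 15 of 50 in the same order. A match describes the letters and not a bound site. The scores of the LINC01682 region were 118 and 123 in siFOXA1 1 and 2, and 9.70 and 29.5 in siNS 1 and 2, which placed it at percentile 99.3 and 99.2 of the siFOXA1 lists and 48.6 and 78.8 of the siNS lists. For DLEU2 the order was the opposite, with 5.73 and 9.74 in siFOXA1 and 332 and 255 in siNS.

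A list of 29 lncRNAs, meant as breast and luminal, was drawn up with earlier results of these data in view. Of these, 14 had a desert region within 10 kb, and 10.4% of all 18177 lncRNA genes had one. Several of the listed genes lie close together near MYC, and some, such as CASC15 and MIR99AHG, have long spans. The part of position and length in these counts was not tested. The whole span of 13 of the listed genes lies in a desert, and 9 of these had a region, with 39.0% of 3874 over all lncRNA genes of that kind. PVT1 had 19. LINC01488, in the CCND1 desert, had 7, all from siNS libraries only, and LINC02953 beside it had 3, also from siNS libraries only. CASC15 had 5 regions with 1 siFOXA1-only, and MIR99AHG, the host of a microRNA cluster, had 3 with 1 siFOXA1-only. LINC00472 had 1, a siNS-only region at its promoter with scores of 23.3 and 7.42. MIR205HG, host of the epithelial microRNA miR-205, had 1 region with peaks of both siFOXA1 libraries and siNS 2. The others with a region were CASC21, PCAT2 and PRNCR1 with 2 each, of which the last pair share theirs, and CASC19, LINC01016, LINC02224 and LINC00504 with 1 each.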

How the data were processed

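Each ChIP library has 1 list of peaks, deposited by the authors with chromosome, start, end, name and score. The deposited score has no stated definition, starts between 2.01 and 2.06 in each list, and was used only as a percentile rank within a list. The submitters' processing notes name Trim Galore, BWA 0.7.5a, SAMtools, MACS2 and hg38. Peak calling settings and the use of the 2 input libraries, whose labels name MDA-MB-454 and which were not analysed here, were "not given in the sources used here". Although the title numbers siFOXA1 as 1 and 2, the list of siFOXA1 2 is named with a different number, and the title's number was kept.

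Positions are 1-based. Mitochondrial peaks (20) were left out. Genes came from RefSeq on GRCh38.p14 (19970 protein-coding and 18177 lncRNA genes on the 23 chromosomes used). Strength averaged the percentile rank of the best score in siNS 1 and siNS 2. Intervals are exact binomial at 95% and cover counting error only. Library values were compared with two-sided exact permutation tests. The named regions come from the 8 per class with the best mean rank, the named deserts are the 10 with the most regions and the 5 densest with at least 5 regions, and the named non-coding genes are the 10 with the most regions and the listed lncRNAs; 1 desert and some of the regions that these rules name are not reported here. Scripts used Python 3.11.15, pandas 2.3.3, SciPy 1.17.1 and bedtools 2.31.1 and were tested on simulated data. The members, lists and tests were chosen with earlier results of these data known. The promoter windows, motifs, lncRNA ends and desert lengths were chosen after the values were seen. Distances of 50 and 200 kb, score filters, lists cut to equal length and the omission of each library were tried as alternatives.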

Additional observations from a re-analysis of the deposited data

How the results depend on the processing

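Of 151 recomputed values, 101 were counted as unchanged and 50 moved beyond their limits. The 12 values of the desert share and the 11 of the rank difference count among the 101. They could leave it only by a change of sign, since p cannot be small with so few libraries. Counts and shares have no sign to reverse. The mean differences and log2 odds ratios kept theirs. The order of the siFOXA1-only and siNS-only counts in deserts did turn without siNS 1 (1127 and 2803) and without siNS 2 (1647 and 2162). The rank difference was −3.12 points (p = 0.875, exact sign-flip permutation test) when each list was cut at its median score, where 2 of the 4 libraries were positive, and −1.26 points with lists of equal length. Except where a change follows from fewer peaks, the cause was not tested. At 50 kb there were 420 common and 1318 siNS-only regions, the log2 odds ratio of being kept (1.88 as reported, averaged over both siFOXA1 libraries) was 1.69, 52.9% of siFOXA1 regions had no siNS peak, and the log2 odds ratio at lncRNA ends (−0.57 as reported) was −0.78. At 200 kb there were 5151 regions, 135 common and 336 siNS-only, with 38.6% kept, a log2 odds ratio of 2.23 and 62.2% without a siNS peak. With only peaks above each list's median score there were 3566 regions, 652 siFOXA1-only, 126 common and 424 siNS-only, with 30.5% kept, log2 odds ratios of 1.70 and −0.76, 63.1% without a siNS peak and 32.6% on a non-coding gene. Over all regions 14.2% were kept in that setting. With every list cut to its 12249 best peaks there were 4529 regions, 113 common and 127 siNS-only (the siFOXA1-only count was 1421), with 54.8% kept, log2 odds ratios of 1.43 and −0.10, 77.5% without a siNS peak and 15.0% of siNS-only regions at lncRNA ends. Over all regions 32.3% were kept with lists of equal length, and 4686 regions were siFOXA1-only and 5172 siNS-only. The log2 odds ratio of being kept was 1.44 without bins, 1.74 in width bins and 0.95 against regions between genes within 100 kb; that at lncRNA ends was −0.30 without bins. The share on non-coding genes was 13.9% without LOC symbols and 41.3% within 10 kb.

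Without each library in turn, the difference in desert share was 15.5 to 18.5 points, the region count 6515 to 7753, siFOXA1-only 1127 to 2307, common 286 to 806, siNS-only 829 to 2803, the kept share 17.1% to 31.0%, its log2 odds ratio 1.53 to 1.92, the share without a siNS peak 58.3% to 85.2%, the rank difference −7.15 to −2.999 points, the share on non-coding genes 30.7% to 31.4%, the lncRNA-end shares 7.28% to 11.5% (siNS-only) and 2.48% to 2.98% (siFOXA1-only), and the log2 odds ratio at lncRNA ends −0.68 to −0.42. Over all regions, leaving out each library gave kept shares of 9.55% to 17.3%. With the replicate number as a block, the desert share differed by 17.0 points (p = 0.5, exact sign-flip permutation test). Over 727 deserts, deviations of same-numbered libraries from their group means were correlated at r = −0.00082, so these counts show no pairing by number. Whether same-numbered libraries were handled together is not stated in the labels, and this correlation cannot decide it. Depth is unknown, so an absent peak is not absent binding.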

Other observations

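Beyond TMEM121, the last coding gene of chromosome 14, 41 desert regions lay between 105640950 and 106873249, where the annotation holds 174 immunoglobulin heavy chain gene segments. None had a siFOXA1 peak (0 in siFOXA1 1 and 0 in siFOXA1 2), while 31 had a siNS 1 peak, 12 a siNS 2 peak and 2 both. Their median width was 290 bp and their median rank was at percentile 24.7 of the siNS 1 list and 26.0 of the siNS 2 list. The part of siNS 1 in these regions was not tested further.

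A few desert regions touched small RNA genes. The microRNA gene MIR5087 lay in a region of both siNS libraries with scores of 24.8 and 21.5, and the isoleucine tRNA gene TRI-TAT2-2 in another with 26.4 and 38.5. MIR148A lay in a region of siNS 2 only, with a score of 5.74.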
